A study of Mus musculus with 18 samples.

Results

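Described here are 10 genes that write, copy or remove 2 repressive chromatin marks, DNA methylation and trimethylation of lysine 27 of histone H3 (H3K27me3). They were taken by name, as a group of related function, and no threshold on their values was used: the DNA methyltransferases Dnmt1, Dnmt3a and Dnmt3b, the Dnmt1 partner Uhrf1, the dioxygenases Tet1, Tet2 and Tet3, and the Polycomb genes Ezh1, Ezh2 and Eed. All 10 were found among the 27997 genes of the table. RNA was sequenced from adherent cultures of mouse neural stem cells (NSCs) and from astrocytes made from them, in 3 lines with 3 replicates of each fate, 18 libraries in all. The tdTomato line (labelled genotype DNGR-1 +/- Tom+/-) and the EYFP line (DNGR-1 +/- EYFP+/-) were grown from fluorescent spinal cord cells of mice in which Cre, driven from the Clec9a locus that encodes DNGR-1, switches on a Rosa26 reporter, so that cells with a history of DNGR-1 expression stay marked. They are called the traced lines below. The hippocampal line (labelled genotype DNGR-1+/+) came from hippocampi of mice carrying Glast-Cre, a floxed Huwe1 allele and a Rosa26 EYFP reporter. The mice were in general 6 to 14 weeks old. NSCs had bFGF and EGF at 20 ng/ml each, no BMP4, and were collected after 4 days. Astrocytes had BMP4 at 20 ng/ml in place of the NSC medium and were collected after 6 days. Fate, medium and time therefore cannot be told apart. Replicates came from passages 10, 11 and 12 of these cultures, so the p-values measure the spread between passages and may not cover that between animals.

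DNA methylation at CpG sites is laid down by Dnmt3a and Dnmt3b and copied to the new strand after replication by Dnmt1, which Uhrf1 brings to half-methylated sites. The TET enzymes oxidise 5-methylcytosine, the first step of active demethylation. Polycomb repressive complex 2 (PRC2) methylates H3K27 through its catalytic subunit, Ezh2 or Ezh1, and Eed binds the mark and stimulates the enzyme. Ezh2 and the Dnmt1 with Uhrf1 pair are known for high expression in dividing progenitors, Ezh1 for expression in cells that have stopped dividing, and Dnmt3a and Tet3 for high expression in the nervous system.

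The promoters below are shown because their genes had the largest falls of the 10 between NSCs and astrocytes and because they hold a match to the E2F consensus, a motif of many genes used at entry into S phase. Each runs from 250 bases before to 50 bases after a RefSeq transcription start (assembly GRCm38.p6), 5′ to 3′ on the strand of the gene. Capitals mark a match to TTTCCCGC, TTTCGCGC, TTTGCCGC or TTTGGCGC on either strand, and none of the matches overlap.
Dnmt1, chr9:20952574-20952873, minus strand: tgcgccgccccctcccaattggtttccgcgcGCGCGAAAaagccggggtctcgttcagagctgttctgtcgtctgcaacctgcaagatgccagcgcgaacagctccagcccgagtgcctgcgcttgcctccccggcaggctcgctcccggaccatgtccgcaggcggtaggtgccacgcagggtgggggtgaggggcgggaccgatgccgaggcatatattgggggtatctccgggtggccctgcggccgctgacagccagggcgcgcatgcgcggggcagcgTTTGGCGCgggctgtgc
Uhrf1, chr17:56304063-56304362, plus strand: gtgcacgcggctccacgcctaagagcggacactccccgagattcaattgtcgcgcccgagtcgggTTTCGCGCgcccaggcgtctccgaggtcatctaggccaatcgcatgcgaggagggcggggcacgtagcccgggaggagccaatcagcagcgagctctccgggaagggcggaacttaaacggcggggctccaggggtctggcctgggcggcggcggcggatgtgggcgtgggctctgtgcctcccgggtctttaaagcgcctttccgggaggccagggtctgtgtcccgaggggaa
Ezh2, chr6:47594981-47595280, minus strand: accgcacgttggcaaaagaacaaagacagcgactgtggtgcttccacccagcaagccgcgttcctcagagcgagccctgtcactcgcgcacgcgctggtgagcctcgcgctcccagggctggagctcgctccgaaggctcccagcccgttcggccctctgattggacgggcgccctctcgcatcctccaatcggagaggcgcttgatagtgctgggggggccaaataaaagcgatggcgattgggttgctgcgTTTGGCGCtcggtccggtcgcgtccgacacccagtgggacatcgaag

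Counted from the start site, the Dnmt1 matches lie at -219 to -212, on the opposite strand, and at 34 to 41. The Uhrf1 match lies at -185 to -178 and the Ezh2 match at 4 to 11. These windows hold 33, 33 and 31 CpG sites in the same order, against a median of 7 over all promoters. High CpG counts were not particular to them, since windows without a match held 57 in Tet2, 46 and 47 in Dnmt3a and 30 in Dnmt3b, and other Dnmt1 and Uhrf1 windows held 2 to 12. Of the 10 genes, 3 had a match in at least 1 promoter, whereas 2.26% of all 32851 promoters and 2.60% of 27025 genes did. No match was found for Dnmt3a, Dnmt3b, Tet1, Tet2, Tet3, Ezh1 or Eed, which says only that these letters are absent from these windows. Other genes of the same pathways with a promoter in the table were searched too. A match was found in 2 of 8 other PRC2 subunits (Suz12 and Phf19) and 2 of 6 partners of DNA methylation (Hells and Cdca7). None of 17 PRC1 subunits, 5 genes listed as erasers, 7 listed as methyl-CpG readers, 9 demethylation partners or 3 genes of S-adenosylmethionine supply had one. Of the S phase genes, 9 of 27 had one. A match is a string of letters and not evidence of binding.

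The values are log2 expression relative to library size as the authors deposited them, and the read depth behind each is unknown. Which of a pair of genes has the higher level is read only after division by exonic length, and differences without it serve only to compare fates or lines. Gfap and Aqp4 were higher in astrocytes in every line, the NSC markers Olig2 and Egfr were lower and Sox2 was higher. Of markers of other cells that were tested, 2 of 3 neuronal, 1 of 2 oligodendrocyte and 3 of 3 ependymal genes rose, and 1 of 2 endothelial genes fell. Of the 5 genes listed for each of these types, the others were not tested. None of the 5 microglial markers found passed the low-value filter over all libraries. Huwe1, floxed in the hippocampal line, stood at 12.97 to 13.16 in hippocampal astrocytes and 13.01 to 13.17 in the astrocytes of the traced lines, and whether it was deleted is not stated. Clec9a was not analysed here. In bulk cultures, fewer cells of a type and less RNA per cell cannot be told apart. The 39 S phase genes, of which none was below the filter in all libraries, summed to a log2 level of 15.71 to 16.27 in NSC libraries and 14.24 to 14.37 in astrocyte libraries.

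Which of the 10 genes changed when NSCs became astrocytes was asked over all lines, with the line as a covariate. All 10 passed the threshold of 0.05 (limma, Benjamini-Hochberg adjusted p), 3 higher and 7 lower in astrocytes. This contrast moved much of the transcriptome: 81.9% of the 15448 genes tested were called, 42.1% higher and 39.8% lower. A call is therefore not particular to these genes, and their sizes are given below. Uhrf1, Ezh2 and Dnmt1 fell most, Ezh1 rose most, and Dnmt3a and Dnmt3b changed least. The 9 NSC and 9 astrocyte values did not overlap for 7 of the 10, against 46.1% of all genes tested. Dnmt3a, Dnmt3b and Tet2 were the exceptions. The median change over the 10 genes was -0.56 and over all genes tested 0.02. All 39 S phase genes fell in the same contrast, with a median log2 change of -1.94 and a range from -5.37 to -0.19, and their part in the changes below was not tested.

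**Figure D1:**
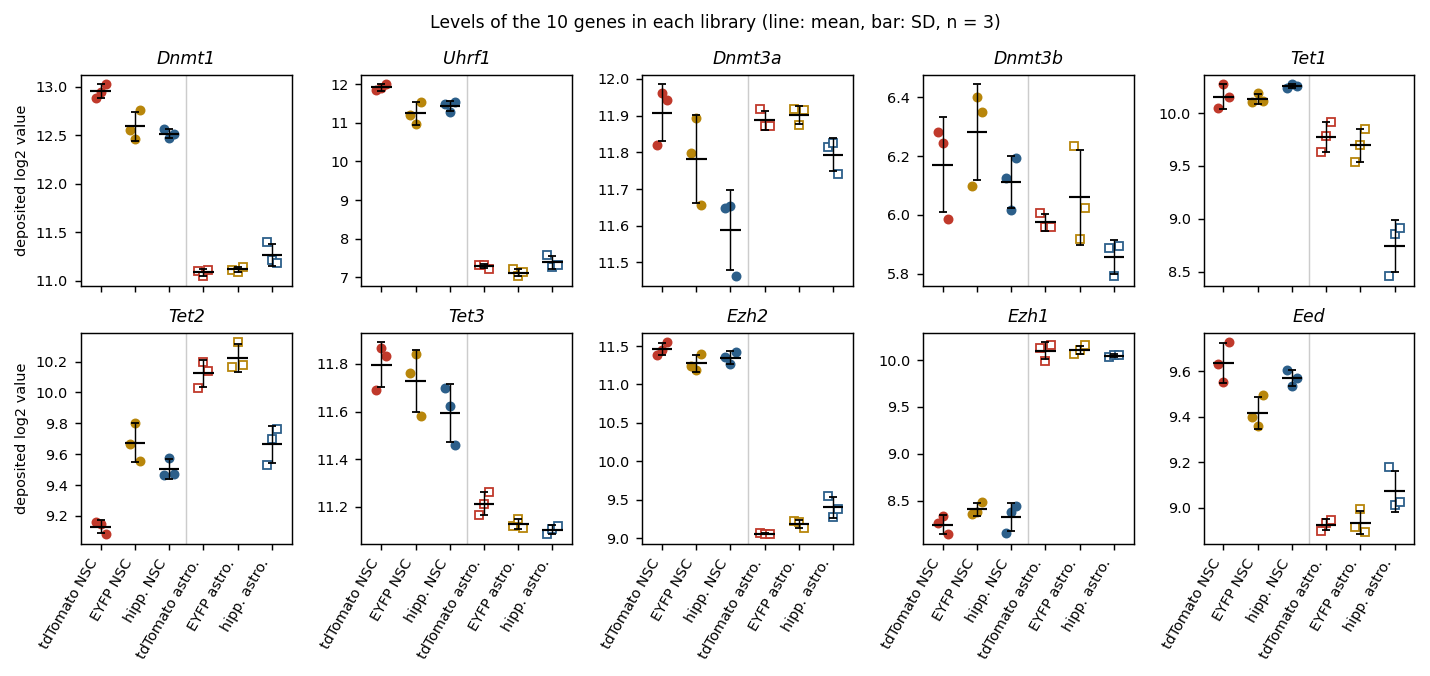
Deposited log2 value of each of the 10 genes (vertical axis, own scale per panel) in the 18 libraries, by line and fate (horizontal axis). Points are libraries, filled for NSCs and open for astrocytes, black lines are group means and bars SD over 3 replicates. Uhrf1 stood between 10.98 and 12.00 in NSCs and between 7.03 and 7.57 in astrocytes, whereas Dnmt3a stayed between 11.46 and 11.96 in both fates.

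Uhrf1, which recognises half-methylated CpG, had the largest fall of the 10 genes. In NSCs it stood at 11.84, 11.91 and 12.00 in the tdTomato line, 11.20, 10.98 and 11.55 in the EYFP line and 11.50, 11.29 and 11.53 in the hippocampal line. In astrocytes it stood at 7.32, 7.32 and 7.23, then 7.22, 7.03 and 7.13, then 7.57, 7.27 and 7.32 in the same order. The fates were thus separated by more than 3 log2 units in every pair of libraries. The change was -4.27 ± 0.09 (SE) on the log2 scale, which is 19.2-fold lower in astrocytes (9 against 9 libraries, limma adjusted p = 1.7e-17). The sources give reads of 75 or 76 bases. About 9.05% of the 75-base stretches of Uhrf1 transcripts also occur in the gene Gm5648, so part of its reads could be shared with that copy.

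Dnmt1, the maintenance methyltransferase, fell by less. Its NSC values were 12.88, 12.94 and 13.02 in the tdTomato line, 12.56, 12.46 and 12.76 in the EYFP line and 12.56, 12.47 and 12.51 in the hippocampal line. Its astrocyte values were 11.10, 11.05 and 11.11, then 11.11, 11.09 and 11.15, then 11.39, 11.21 and 11.19. Every astrocyte library lay below every NSC library, and the NSC libraries of the tdTomato line were the highest. The change was -1.53 ± 0.07, or 2.89-fold lower (limma adjusted p = 1.3e-12). Per kilobase of exon, counting all annotated exonic bases, it was the highest of the 10 genes in both fates. It stood at 9.80 ± 0.22 (SD, n = 9) in NSCs and 8.27 ± 0.10 in astrocytes. With the median transcript as length it was at rank 4 in NSCs and rank 7 in astrocytes.

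The de novo methyltransferases had the smallest changes of the 10. Dnmt3a had NSC values of 11.82, 11.96 and 11.94 (tdTomato), 11.80, 11.89 and 11.66 (EYFP) and 11.65, 11.65 and 11.46 (hippocampal), and astrocyte values of 11.92, 11.87 and 11.87, then 11.92, 11.87 and 11.91, then 11.81, 11.83 and 11.74. The fates overlapped. Its change was 0.10 ± 0.04 (limma adjusted p = 0.031), and the call was lost with quantile normalization (0.099) and on leaving out tdTomato NSC replicate 1, EYFP NSC replicate 3, hippocampal NSC replicate 3 or hippocampal astrocyte replicate 1 or 2 (0.0512 to 0.0685). Dnmt3b, the other de novo enzyme, was the lowest of the 10 genes per kilobase in both fates. It ranged from 5.99 to 6.40 in NSCs and from 5.79 to 6.23 in astrocytes, a change of -0.22 ± 0.07 (limma adjusted p = 0.0046) with overlapping fates. Its size depended on the scaling, from -0.18 with median centring to -0.42 with quantile normalization. About 6.17% of its 75-base stretches also occur in Dnmt3c.

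The 3 TET genes went in different directions. Tet1, the first of the family to be shown to oxidise 5-methylcytosine, had close NSC values, at 10.04, 10.27 and 10.15 in the tdTomato line, 10.10, 10.19 and 10.11 in the EYFP line and 10.24, 10.27 and 10.25 in the hippocampal line. In astrocytes it stood at 9.63, 9.78 and 9.91 (tdTomato), 9.54, 9.70 and 9.85 (EYFP) and 8.46, 8.85 and 8.92 (hippocampal). The hippocampal astrocytes were the lowest 3 libraries, below every other. Over all lines the change was -0.78 ± 0.14 (limma adjusted p = 5.8e-05).

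Tet2, which unlike the other TET enzymes has no CXXC domain of its own, rose. Its NSC values were 9.16, 9.15 and 9.08 in the tdTomato line, 9.67, 9.80 and 9.55 in the EYFP line and 9.47, 9.58 and 9.47 in the hippocampal line. Its astrocyte values were 10.03, 10.20 and 10.14, then 10.16, 10.32 and 10.18, then 9.53, 9.70 and 9.77. The astrocytes of the traced lines lay above all NSC libraries, and those of the hippocampal line overlapped with NSCs. The change over all lines was 0.57 ± 0.09 (limma adjusted p = 2.0e-05). Tet3, the TET gene with the highest level per kilobase of all exonic bases, though not by the median transcript, ranged from 11.46 to 11.87 in NSCs and from 11.08 to 11.26 in astrocytes without overlap. It fell by 0.56 on the log2 scale (SE 0.04, limma adjusted p = 3.7e-10).

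Among the PRC2 genes, the catalytic subunits changed in opposite directions. Ezh2 stood at 11.39, 11.45 and 11.55 in tdTomato NSCs, 11.24, 11.19 and 11.40 in EYFP NSCs and 11.36, 11.26 and 11.43 in hippocampal NSCs. In astrocytes it stood at 9.07, 9.05 and 9.05, then 9.22, 9.21 and 9.13, then 9.55, 9.28 and 9.38. It was lower in all 9 astrocyte libraries, with a change of -2.15 ± 0.06, or 4.43-fold lower (limma adjusted p = 8.7e-16). Ezh1, the catalytic subunit with the weaker methyltransferase activity, stood at 8.26, 8.33 and 8.14, then 8.35, 8.38 and 8.48, then 8.15, 8.37 and 8.44 in NSCs of the lines in that order. Its astrocyte values were 10.13, 10.00 and 10.17, then 10.07, 10.10 and 10.16, then 10.03, 10.06 and 10.06. The astrocyte libraries were all within 0.2 of one another and all above the NSCs. The change was 1.76 ± 0.04, or 3.39-fold higher (limma adjusted p = 1.6e-16).

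Eed, the subunit that reads H3K27me3, ranged from 9.36 to 9.73 in NSCs and from 8.90 to 9.18 in astrocytes. It fell by 0.56 on the log2 scale (SE 0.04, limma adjusted p = 6.4e-10), a smaller change than that of Ezh2. Of its exonic bases, 6.82% overlap the gene E230029C05Rik on the opposite strand, as 2.61% of those of Ezh2 overlap Gm26625, and whether the reads were counted by strand is not given in the sources used here.

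Taken line by line, with 3 libraries against 3, the picture varied for the less responsive genes. In every line 8 of the 10 genes were called, against 79.3% of all genes in the tdTomato line, 74.9% in the EYFP line and 77.3% in the hippocampal line. Uhrf1, Dnmt1, Ezh2, Eed, Tet1 and Tet3 fell and Ezh1 rose in all 3 lines. Tet2 rose by 0.99 ± 0.06 in the tdTomato line and 0.55 ± 0.07 in the EYFP line. In the hippocampal line its difference was 0.16 ± 0.07, which missed the threshold (limma adjusted p = 0.057) and passed it without hippocampal NSC replicate 2 (0.0448) or hippocampal astrocyte replicate 1 (0.0057). Dnmt3a passed only in the hippocampal line as deposited, at 0.21 ± 0.06 (limma adjusted p = 0.0074), against -0.02 ± 0.05 in the tdTomato and 0.12 ± 0.06 in the EYFP line. Its EYFP value passed with median centring (0.18, limma adjusted p = 0.0303) and without EYFP NSC replicate 2 (0.0233). Dnmt3b, between -0.25 and -0.20, passed in no line as deposited. With quantile normalization it passed in all 3, at -0.37 (limma adjusted p = 0.0187) for tdTomato, -0.36 (0.0450) for EYFP and -0.55 (0.0024) for hippocampal cultures, and in the last also without a variance trend (0.0115).

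**Figure D2:**
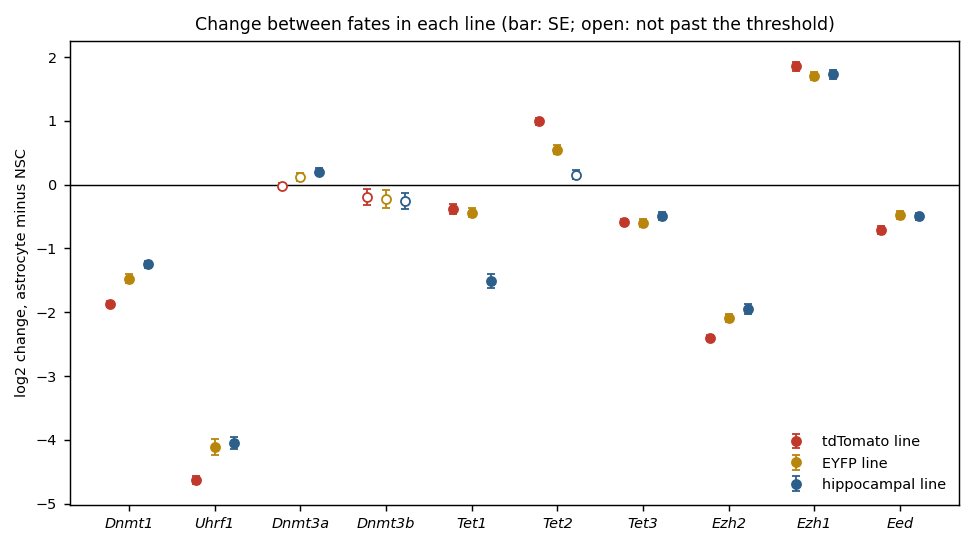
Log2 change of each gene from NSC to astrocyte (vertical axis) in the tdTomato, EYFP and hippocampal lines. Points are limma estimates with bars of 1 SE, and open points did not pass the threshold. Tet1 fell by 1.51 in the hippocampal line and by 0.38 and 0.44 in the others, and Tet2 differences ran from 0.16 to 0.99.

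Because related enzymes can share substrates, the difference between 2 related genes was taken within each library and compared between fates with a two-sided exact permutation test, 9 against 9, over 6 pairs. The log2 value of Ezh2 minus that of Ezh1 was 3.04 ± 0.19 (SD, n = 9) in NSCs and -0.87 ± 0.20 in astrocytes. This change of -3.91 had the smallest p that relabelling 18 libraries allows (exact permutation p = 4.1e-05, adjusted 6.2e-05). The lowest NSC library stood at 2.81 and the highest astrocyte library at -0.49. Since Ezh2 and Ezh1 each separated the fates, in opposite directions, their difference had to as well, and this p adds no evidence to the single genes. Divided by exonic length, Ezh2 was 9.16-fold higher than Ezh1 in NSCs and Ezh1 1.64-fold higher than Ezh2 in astrocytes, so the order of these catalytic subunits was opposite in the 2 fates.

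For Dnmt3a minus Dnmt1, the log2 difference moved from -0.93 ± 0.18 in NSCs to 0.70 ± 0.14 in astrocytes (exact permutation p = 4.1e-05). Since Dnmt1 separated the fates and Dnmt3a hardly moved, the difference had to separate them too. This p again adds no evidence to the single genes. Per kilobase of exon Dnmt1 remained the higher of the pair, by 4.29-fold in NSCs and 1.38-fold in astrocytes, an order that depends on the length used because Dnmt3a has many short transcripts. Tet1 minus Tet2 moved from 0.74 ± 0.26 to -0.60 ± 0.28, and Tet3 minus Tet2 from 2.27 ± 0.31 to 1.14 ± 0.25, both with the same exact permutation p. Since Tet2 was called higher and Tet1 and Tet3 lower, the p-values of these pairs add little to the single genes. Dnmt3a minus Dnmt3b moved less, from 5.57 ± 0.21 to 5.90 ± 0.10 (exact permutation p = 0.0012, adjusted 0.0014), and within lines its fates overlapped for tdTomato (change 0.18) and EYFP (0.34) and not for hippocampal cultures (0.46). Tet1 minus Tet3 was -1.53 ± 0.17 in NSCs and -1.74 ± 0.49 in astrocytes, a pooled change that did not pass (exact permutation p = 0.22). This pooled value joins lines that went opposite ways, with changes of 0.20 in the tdTomato line and -1.02 in the hippocampal line, both without overlap, and 0.16 in the EYFP line with overlap. The astrocyte values of the pair were not alike between lines, at -1.44 ± 0.09 (n = 3) for tdTomato, -1.43 ± 0.16 for EYFP and -2.36 ± 0.23 for hippocampal astrocytes.

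**Figure D3:**
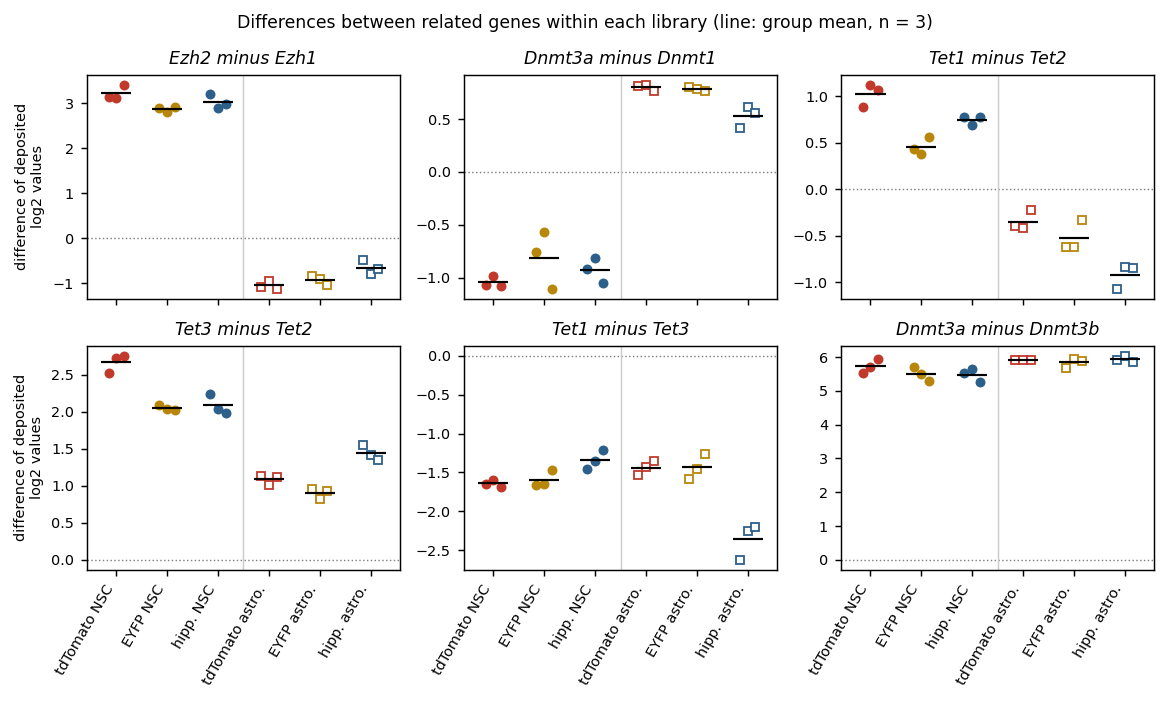
Difference between the deposited log2 values of 2 related genes in each library (vertical axis, own scale per panel), by line and fate. Points are libraries, filled for NSCs and open for astrocytes, and black lines group means over 3 replicates. Ezh2 minus Ezh1 was at least 2.81 in NSC libraries and at most -0.49 in astrocyte libraries, before division by length.

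Levels per kilobase of exon placed the genes in a different order in each fate. In NSCs Dnmt1 was followed by Uhrf1, at 9.44 ± 0.34, and Ezh2, at 8.62 ± 0.11, each step in the same direction in 9 of 9 libraries. Dnmt3a (7.70), Tet3 (7.64) and Eed (7.60) came next and did not keep 1 order in all libraries. Tet1 (6.23) lay above Ezh1 (5.43) and Tet2 (5.36), which changed places between libraries, and Dnmt3b was last at 3.84 ± 0.14. In astrocytes Dnmt1 was followed by Dnmt3a at 7.80 ± 0.06 and Ezh1 at 7.19 ± 0.06. Tet3 (7.09) and Eed (7.04) followed Ezh1, also without the same order in all libraries. Ezh2 (6.48), Tet2 (5.93), Tet1 (5.46) and Uhrf1 (5.18) came after them, of which Tet1 was above Uhrf1 in 6 of 9 libraries. In hippocampal astrocytes their order was the other way, with means of 5.30 for Uhrf1 and 4.79 for Tet1. With the lines pooled, Uhrf1 went from rank 2 to rank 9 and Ezh1 from rank 8 to rank 3. These ranks rest on all annotated exonic bases as length. With the longest transcript Uhrf1 was at rank 3 in NSCs, behind Ezh2, and with the median transcript at rank 6, behind Dnmt3a, Ezh2, Tet1, Dnmt1 and Eed. With each of these lengths it was at rank 9 in astrocytes, Ezh1 was at rank 8 in NSCs and at rank 2 or 3 in astrocytes, and Dnmt3b was last. With the median transcript Dnmt3a lay above Dnmt1 and Tet1 above Tet3 in both fates, and Tet1 above Tet2 in astrocytes.

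Whether the traced lines differed from the hippocampal line was asked within each fate, 6 against 3 libraries, and since the hippocampal line differs in tissue, in alleles and as a culture, these cannot be told apart. In NSCs 1 of the 10 genes was called, against 19.4% of all genes. It was Dnmt3a, higher in the traced lines by 0.26 ± 0.07 (limma adjusted p = 0.032). That call was lost on leaving out any of 7 of the 9 libraries (0.0515 to 0.153), all but EYFP NSC replicates 1 and 3. Dnmt1 passed without EYFP NSC replicate 2 (0.0463). None of the 39 S phase genes was called in this comparison. The 7 astrocyte markers summed to 14.35 to 15.13 in traced and 15.45 to 15.51 in hippocampal NSCs, and their part was not tested.

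In astrocytes 6 of the 10 genes were called between origins, against 52.0% of all genes. Tet1 and Tet2 had the largest differences. Tet1 was 0.99 ± 0.11 higher in the traced lines, or 1.99-fold (limma adjusted p = 3.1e-05), and Tet2 was 0.51 ± 0.07 higher (0.00012). For both, every traced library lay above every hippocampal one. Dnmt3a was 0.10 ± 0.03 higher (limma adjusted p = 0.027). With these, 3 were higher, against 24.1% of all genes, and 3 lower, against 27.9%. The lower genes were Ezh2, at -0.28 ± 0.07 (0.0058), Dnmt1, at -0.16 ± 0.05 (0.015), and Eed, at -0.14 ± 0.05 (0.039). Of these, Dnmt1 did not pass without hippocampal astrocyte replicate 1 (0.0641), Dnmt3a without hippocampal astrocyte replicate 3 (0.131), and Eed without any of 7 of the 9 libraries (0.0522 to 0.183). Dnmt3a also missed the threshold in a model of all 6 groups (0.0967) and without a variance trend (0.0528), and Eed with median centring (0.109) and quantile normalization (0.0943), where Dnmt3b passed at 0.29 (0.0429). Uhrf1, Tet3, Ezh1 and Dnmt3b did not pass. Beside these values, 13 S phase genes were higher and 6 lower in traced astrocytes, with a median of 0.07, and the 7 astrocyte markers summed to 16.54 to 17.10 in traced and 17.15 to 17.44 in hippocampal astrocytes, with 1 of the 7 below the filter in all libraries. The 5 NSC markers summed to 14.36 to 14.54 in traced and 14.87 to 15.01 in hippocampal astrocytes (2 higher and 2 lower in traced), and the 5 oligodendrocyte markers to 9.59 to 10.34 and 8.01 to 8.26 (1 higher and 1 lower of 2 tested). All 3 ependymal markers tested were lower in traced astrocytes, and of 3 neuronal markers 2 were higher and 1 lower. The part of these markers in the differences was not tested.

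The traced lines, which differ in their reporter and in the animals they came from, were also compared with each other. In NSCs 5 of the 10 genes were called, against 33.2% of all genes. In the tdTomato line Uhrf1 was 0.67 ± 0.12 higher (limma adjusted p = 0.0050), Dnmt1 0.36 ± 0.07 higher (0.0079), Eed 0.22 ± 0.06 higher (0.024) and Ezh2 0.19 ± 0.06 higher (0.0498), and Tet2 was lower by 0.55 ± 0.07 (0.00075). Ezh2 and Eed both lost their calls without tdTomato NSC replicate 3 or EYFP NSC replicate 1 or 2, and Ezh2 also without tdTomato NSC replicate 2 (0.0758 to 0.163). Ezh2 also lost its call with quantile normalization (0.0558) and without a variance trend (0.110), and Eed without a trend (0.0507). With no filter Tet2 alone passed. In the same comparison 30 of the 39 S phase genes were higher in the tdTomato NSCs and none lower, with a median of 0.35 against 0.01 for all genes. Their summed level was 16.15 to 16.27 in tdTomato and 15.71 to 16.04 in EYFP NSCs. Of the astrocyte markers, 4 of the 6 tested were lower in tdTomato NSCs and 1 higher, with a median of -0.55 and sums of 14.35 to 14.76 against 14.84 to 15.13, and of the 5 NSC markers 3 were lower and 1 higher. The part of these genes in the differences was not tested. In astrocytes limma called none of the 10 genes, against 11.2% of all genes. Only Ezh2, at -0.13 ± 0.05, was under 0.05 before adjustment. None of the 39 S phase genes was called there.

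The differences between lines in the change from NSC to astrocyte were tested as interactions. For the traced lines against the hippocampal line 4 of the 10 genes were called, against 42.2% of all genes. The fall of Tet1 was smaller in the traced lines by 1.10 ± 0.13 (limma adjusted p = 1.8e-06), and the rise of Tet2 was larger by 0.61 ± 0.13 (0.00084). Dnmt1 and Ezh2 fell further in the traced lines, by 0.42 ± 0.11 (0.0063) and 0.30 ± 0.10 (0.028). Ezh2 lost its call without hippocampal NSC replicate 2 (0.0860) or hippocampal astrocyte replicate 1 (0.105), Uhrf1 gained one without EYFP NSC replicate 2 (0.0250) and Dnmt3a without EYFP NSC replicate 3 (0.0284). In the same test the difference was positive for 7 and negative for 8 of the 39 S phase genes, positive for 2 and negative for 1 of the 5 NSC markers, positive for 1 and negative for 2 of the 6 astrocyte markers tested, and negative for 2 of the 3 ependymal markers tested, and their part was not tested. Of all genes called, 44.0% had a positive difference, and 56.5% after median centring. The signs of these 4 genes were the same under both scalings, but Ezh2 did not pass with median centring (-0.23, limma adjusted p = 0.0665) or quantile normalization (-0.26, 0.0535).

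For the tdTomato against the EYFP line 4 of the 10 were called as well, against 11.8% of all genes. Uhrf1, Dnmt1 and Ezh2 fell further in the tdTomato line, by 0.51 ± 0.16 (limma adjusted p = 0.0499), 0.39 ± 0.09 (0.014) and 0.32 ± 0.08 (0.024), and the rise of Tet2 was larger there by 0.45 ± 0.10 (0.011). The calls for Dnmt1 and Tet2 held on leaving out each library in turn. That of Uhrf1 was lost on leaving out any of 10 of the 12 libraries, with median centring (0.0530), with no filter (0.119) and without a variance trend (0.0941). That of Ezh2 was lost with no filter (0.0519), without a trend (0.0503) and without tdTomato NSC replicate 2 or 3, EYFP NSC replicate 1 or 2, tdTomato astrocyte replicate 2 or EYFP astrocyte replicate 1. Eed gained a call without EYFP NSC replicate 3 (0.0457). Of the 39 S phase genes, 12 also fell further in the tdTomato line and none less. The difference was positive for 2 of the 6 astrocyte markers tested, 2 of 5 NSC markers, 1 of 3 neuronal, 1 of 1 oligodendrocyte and 1 of 3 ependymal markers, and negative for 1 of 2 endothelial markers. The part of these genes was not tested. These comparisons share libraries with those above.

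The other genes of the same pathways were followed over all lines, where 42.1% of all genes rose and 39.8% fell. Of the 9 other PRC2 subunits, none rose, 7 fell and 2 did not pass, with a median change of -0.52. Suz12, the core subunit needed for the stability of PRC2, fell by 0.97 on the log2 scale. The largest changes were in accessory subunits: Epop went from 7.80 ± 0.35 (SD, n = 9) in NSCs to 5.87 ± 0.27 in astrocytes, Phf1 from 7.11 ± 0.16 to 5.81 ± 0.44 and Phf19 from 8.47 ± 0.08 to 7.45 ± 0.39. Aebp2 and Jarid2, at -0.04 and 0.01, did not pass.

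Polycomb repressive complex 1 (PRC1), which ubiquitinates histone H2A and whose CBX subunits can bind H3K27me3, was mixed. Of its 22 subunits, 6 rose, 15 fell and 1 did not pass, with a median of -0.56. Among the CBX readers, Cbx7 rose by 1.71 ± 0.09 (SE, limma adjusted p = 4.3e-12) and Cbx6 by 0.86, whereas Cbx2 and Cbx8 changed by -0.78 and -0.97. Pcgf2 rose by 1.39 ± 0.09, and its paralogue Bmi1 changed by -0.14. Phc2 fell by 1.10 on the log2 scale. Of the catalytic pair, Ring1 was higher by 0.57 and Rnf2 changed by -0.21. The 7 genes listed under removal of H3K27 methylation or H2A ubiquitin, not all of them enzymes, moved little. Of these, 2 rose and 4 fell, with a median of -0.09. The largest change among those without overlap was that of Usp16, at -0.26.

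On the DNA methylation side, 5 of the 7 listed partners of the methyltransferases were tested, 4 fell and 1 did not pass. Hells, a chromatin remodeller needed for DNA methylation, and Cdca7, its partner, fell by 3.29 and 3.00 on the log2 scale, and Uhrf2, the paralogue of Uhrf1, by 0.89. Of the 10 genes listed as readers of methylated CpG, not all of which bind it, 8 rose and 2 fell, with a median of 0.41. Zbtb4 rose most, from 9.16 ± 0.10 (SD, n = 9) to 10.66 ± 0.08 (limma adjusted p = 1.9e-17), and Mbd3, whose protein lacks affinity for methylated CpG in mammals, was the one with the largest fall, at -0.64. Of the 10 partners in demethylation, 5 rose, 4 fell and 1 did not pass. Gadd45b and Cxxc5 rose by 2.36 and 1.66, and Cxxc4 and Tdg, the glycosylase that excises oxidised methylcytosine, changed by -1.65 and -0.86. Of 3 genes of S-adenosylmethionine supply, Ahcy, the hydrolase that removes the by-product of methylation, changed by -0.93, Mat2b rose by 0.17 and Mat2a did not pass. All S phase genes fell beside these lists, as given above.

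**Figure D4:**
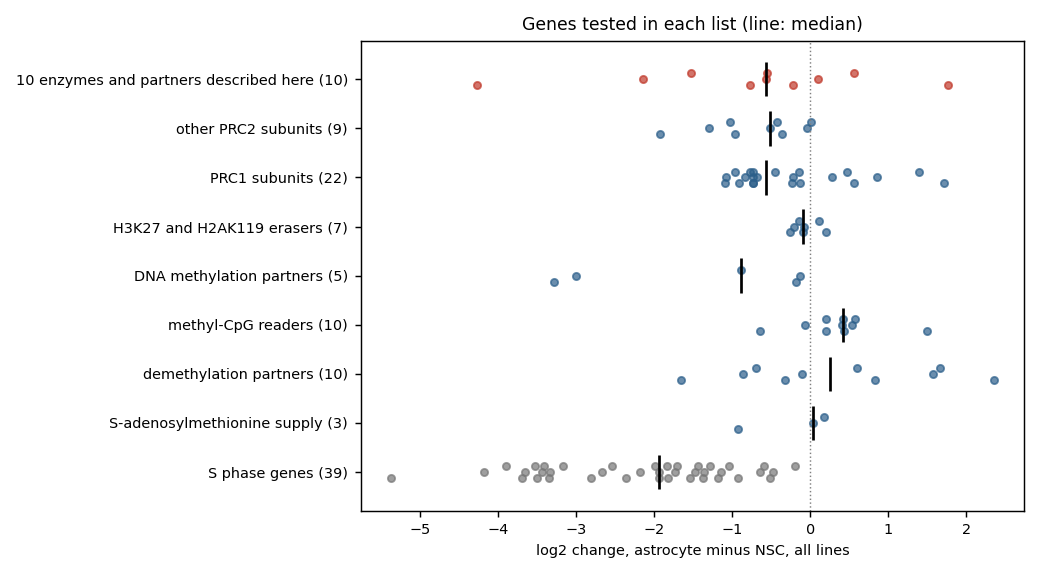
Log2 change from NSC to astrocyte over all lines (horizontal axis) of every gene tested in each list (rows, with the number of genes). Points are genes and black lines medians. The S phase genes lie to the left of 0 with a median of -1.94. The genes listed as methyl-CpG readers lie mostly to the right with a median of 0.41. The 10 genes described here run from -4.27 to 1.76.

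The genes whose pattern over the 18 libraries was closest to each of the 10 were found by the root mean square difference after centring, on the log2 scale. Uhrf1 was closest to Rrm2, a subunit of ribonucleotide reductase, at 0.19, and to Kif11, a spindle motor, at 0.24, against a median of 2.18 over all genes tested. Ezh2 was closest to Mcm7, a subunit of the replicative helicase, at 0.11, and to Cdr2l, at 0.12, with a median of 1.13. Dnmt1 was closest to Tubb5, a beta-tubulin, at 0.08, and to Hnrnpab, at 0.11, with a median of 0.85. Ezh1 was closest to Card6 and Wipi1, Tet1 to Cdh20 and Calcrl, and Tet2 to Speg and Kyat1, at 0.09 to 0.15. Tet3 was closest to Larp1 and Baz1b, Eed to Txnl1 and Psma1, Dnmt3a to Golga4 and Spg11, and Dnmt3b to Dync1li1 and Lcmt1, at 0.05 to 0.10.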

How the data were processed

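The authors aligned reads with STAR (version 2.5.2), estimated gene counts on GRCm38 with RSEM (version 1.3.0) and used DESeq2 (version 1.18.1) for normalization, per the submitters' processing notes. The deposited log2 values look like a regularized log, which pulls weakly expressed genes towards their mean and so understates their changes. The transform is not named, and the read depth behind the values is unknown, so no counting error is given. Sources disagree on the library kit and, by 1 base, on the read length. Symbols, lengths and overlaps came from GENCODE M21 (GRCm38), for 27887 genes, and promoters from RefSeq (GRCm38.p6).

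Tests on the deposited log2 values used limma (version 3.58.1, in R 4.3.3), fitting a variance trend. Genes needed a log2 value of at least 3.32 (10 on the linear scale) in 3 of the libraries compared, which all 10 genes passed in every comparison. Benjamini-Hochberg adjustment ran over all genes tested, with a threshold of 0.05. The fit was tested on simulated data. Differences between related genes had exact permutation tests. Of other lists, up to 3 genes with the largest change without overlap between fates were named by rule, and further ones were chosen after their values were seen. The 10 genes and all lists were chosen with earlier results of these data known. Dppa3, Cx3cr1, Cldn5 and Pifo were not analysed here. A gene of the lists is not reported here by name. Replicate numbers were checked for pairing. Alternatives were other filters, pseudocounts, scalings and models, and leaving out each library.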

Additional observations from a re-analysis of the deposited data

Results flagged for a closer look

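In 8 cases the change from NSC to astrocyte of one of the 10 genes differed between lines by the test of the difference itself (limma interaction, Benjamini-Hochberg adjusted p under 0.05). Between the traced lines and the hippocampal line, the difference in log2 change was 1.10 for Tet1, 0.61 for Tet2, -0.42 for Dnmt1 and -0.30 for Ezh2. Tet1 has the largest of these, and it lay in the astrocytes: the 3 NSC groups had means of 10.15, 10.13 and 10.25, and the astrocyte groups 9.78, 9.70 and 8.74. For Dnmt1 and Ezh2 the change in the EYFP line was closer to the hippocampal than to the tdTomato one. Between the tdTomato and the EYFP line, the difference was -0.51 for Uhrf1, 0.45 for Tet2, -0.39 for Dnmt1 and -0.32 for Ezh2. There the NSC groups differed more than the astrocyte groups, with Dnmt1 means of 12.95 and 12.59 in NSCs and 11.09 and 11.12 in astrocytes. No group had enough libraries to be searched for single outlying ones.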

How the results depend on the processing

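The number of the 10 genes called changed by more than 1.5 times in 3 comparisons. Traced against hippocampal NSCs gave 1, but 0 with no filter, with median centring or in limma without a trend, and 3 in a model of all 6 groups, which called Dnmt1 and Tet3 besides Dnmt3a. tdTomato against EYFP NSCs gave 5, but 1 with no filter and 3 without a trend. The interaction between fate and traced line gave 4, but 2 with no filter or without a trend. Leaving out each library in turn gave 0 to 1, 3 to 5 and 2 to 5 in these comparisons, and 9 to 10 for the fates over all lines. All calls over all lines held under every alternative except that of Dnmt3a, and a filter of 100 left Dnmt3b untested. The causes were not tested.

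With the replicate block, the counts were 9 for the hippocampal line, where Tet2 was gained (limma adjusted p = 0.0457), and 5 between origins in astrocytes, where Eed was lost (0.0528). No other call of the 10 genes changed. Same-numbered libraries of other lines correlated at 0.106 on average within a fate (0.012 to 0.313), against -0.053 for other numbers, and at -0.023 between the fates of a line. Not every pair was over 0.1, so the numbers were not taken as pairs.

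Over all genes, traced against hippocampal NSCs gave 2822 calls and 4864 in the 6-group model, the traced lines as NSCs 4748 and 2970 with no filter, and as astrocytes 1641, 975 with no filter and 3049 with the replicate block. Leaving out 1 library gave as few as 1657, 2719, 936 and, for the interaction between traced lines (1781), 1055.

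With the median transcript in place of all exonic bases as length, the per-length log2 difference turned for Dnmt3a minus Dnmt1 (1.75 in NSCs, 3.38 in astrocytes), Tet1 minus Tet2 in astrocytes (1.41) and Tet1 minus Tet3 (1.49 in NSCs, 1.27 in astrocytes). Uncalled differences changed sign in 30 cases over 12 results, with values of up to 0.0805 there and 0.0849 in the tests as reported.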
